A study of Rattus norvegicus with 170 samples.

Results

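The insulin genes and amylin are a set of 3 genes, *Ins1*, *Ins2* and *Iapp*, taken by name out of the 24113 genes listed for single cells of rat islets. Each of them had 1 transcript row in the table. The values came from 170 cells, with 86 from islet cells kept in 0.1% DMSO, the vehicle, and 84 from cells kept with 3 μM GNF4877, an aminopyrazine given to drive β-cells into division, for 48 h in both cases. All cells were from wild-type male Sprague Dawley rats of 8 weeks, grown in RPMI medium with 5.5 mM glucose and 10% serum, separated with trypsin, captured one by one on a microfluidic chip and sequenced from amplified cDNA without molecular identifiers. The labels named no animal, culture or repeat chip, so each treatment was 1 sample. Treatment, chip and culture cannot be told apart, cells are not replicates, and no difference below has a replicate check or a test.

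Insulin is the hormone by which β-cells lower blood glucose. Rats and mice carry a pair of genes for it, of which *Ins2* is the ancestral gene and *Ins1* a retroposed copy that has lost an intron. *Iapp* encodes amylin, a peptide stored in the same granules as insulin and released with it. The other islet hormones mark other cells, with glucagon (*Gcg*) in α-cells, somatostatin (*Sst*) in δ-cells and pancreatic polypeptide (*Ppy*) in PP cells.

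Levels are reads of a gene scaled to 1000000 mapped reads of the cell (RPM), not divided by transcript length, so a level is compared between cells and never between genes, and where a gene is said to take the most reads of a list, this is a count of reads and not of transcripts. Mapped reads, recovered from the size of 1 read in each cell, ran from 241604 to 2499138 per cell with a median of 1295468. A cell was called insulin-only when *Ins1* was at 1000 RPM or more and *Gcg*, *Sst* and *Ppy* were each under 1000 RPM, which took 53 DMSO cells and 55 GNF4877 cells. Because *Ins1* made this class, its level there is a description of a range. *Ins2* and *Iapp* were not used, but both rose with *Ins1* over cells. The threshold can therefore also leave out cells with low *Ins2* or *Iapp*, and their levels are not independent of it. Cells with *Gcg* of 1000 RPM or more were classed by *Gcg*, whatever their *Sst* and *Ppy*. Just inside the *Ins1* threshold lay GNF4877 cell 2 at 1248 RPM, GNF4877 cell 44 at 2435 RPM and DMSO cell 80 at 2502 RPM. Just outside it, among cells with none of these hormones at 1000 RPM, lay DMSO cell 91 at 418 RPM, GNF4877 cell 57 at 339 RPM and DMSO cell 83 at 171 RPM. *Ins1* and *Ins2* are near-identical in their coding sequence and the reads were short, so reads of one may have been counted for the other, and the split between them is uncertain.

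Some libraries stood apart. In 7 cells the listed transcripts took between 2.65% and 18.9% of the mapped reads, while in the other 163 cells they took at least 76.4%. Insulin-only cells among the 7 were DMSO cells 48, 73 and 80 and GNF4877 cell 2. These 4 cells held *Ins1* at 6088, 3604, 2502 and 1248 RPM, all toward the low end of their groups. Results are given with them. Without them the lowest *Ins1* was 3891 RPM in DMSO and 2435 RPM in GNF4877, the lowest *Ins2* 183 and 115 RPM and the lowest *Iapp* 2.04 and 3.61 RPM. The treatments also differed in their libraries, as the median DMSO insulin-only cell had reads of 8787 genes and the median GNF4877 one of 6959, with median mapped reads of 1188379 and 1424573. The part of this in the levels below was not tested.

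The insulin-only class carried β-cell markers. Of 12 β-cell genes listed, 11 had a row (*G6pc2* had none), and their summed level had a median of 1367 RPM in DMSO and 2490 RPM in GNF4877 insulin-only cells. The glucose transporter *Slc2a2* took the most reads of them, at a mean of 1610 and 3018 RPM, and the zinc transporter *Slc30a8* also had a higher mean in GNF4877 (417 and 861 RPM). Other β-cell genes had lower means in GNF4877, among them *Ucn3* (170 and 84.6 RPM), *Glp1r* (120 and 42 RPM), *Pdx1* (38.6 and 30.8 RPM), *Ffar1* (16.5 and 9.76 RPM) and *Nkx6-1* (11.8 and 4.68 RPM). *Mafa* was near 0, with a mean of 0.119 RPM in DMSO, and was listed at 0 in every GNF4877 insulin-only cell. The 9 α-cell genes had summed medians of 1047 and 1208 RPM. *Slc38a5* took the most reads of them, with means of 896 and 1913 RPM, and *Gc* had 437 and 610 RPM. *Irx1* was listed at 0 in every insulin-only cell. *Gcg* had a median of 74.3 and 74.1 RPM, far under its medians of 409098 and 271660 RPM in cells with *Gcg* and no insulin. Summed δ-cell genes had medians of 2.40 and 4.62 RPM, and summed PP genes medians of 69 and 17.5 RPM. The duct genes, with most reads on *Krt7*, had summed medians of 154 and 147 RPM. Acinar and endothelial genes had summed medians of 0 in both treatments. Immune genes had summed medians of 0.693 and 0.598 RPM, with most reads on *Cd74*, at means of 3.78 and 57.3 RPM. Mesenchymal genes had summed medians of 0.400 and 0 RPM, but summed means of 504 and 0.471 RPM. The highest sum, 15239 RPM, was in DMSO cell 46, which met the insulin rule while carrying another cell type's markers. This cell accounts for only part of the DMSO mean over 53 cells, so mesenchymal reads also lay in other DMSO insulin-only cells. The part of these genes in the hormone levels was not tested.

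*Ins1*, the retroposed insulin gene, ran from 2502 to 147087 RPM in the 53 DMSO insulin-only cells, with a median of 38084 RPM. In the 55 GNF4877 cells it ran from 1248 to 184281 RPM with a median of 24380 RPM. The groups overlapped over nearly their whole range, yet 41 of 55 GNF4877 cells lay below the DMSO median. Mean *Ins1* was 47061 RPM in DMSO and 29261 RPM in GNF4877, a log2 ratio of means of -0.69. In DMSO 48 of 53 cells held *Ins1* at 10000 RPM or more, and in GNF4877 45 of 55 did.

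*Ins2*, the ancestral gene, spread more widely between cells. It ran from 183 to 106034 RPM in DMSO where the median cell held 14375 RPM, and between 21.6 and 152865 RPM in GNF4877, where it held 5619 RPM. Of the GNF4877 cells, 43 of 55 lay below the DMSO median, and the mean was 10265 RPM against 22426 RPM, a log2 ratio of -1.13. The 90th percentile was 37.1 times the 10th in DMSO and 40.0 times in GNF4877, whereas for *Ins1*, whose low values the class leaves out, it was 8.71 and 10.0 times. Over all cells with no other hormone at 1000 RPM, a group that used no member, these were 72.2 and 103 times for *Ins2* and 16.4 and 18.7 times for *Ins1*. *Ins2* reached 1000 RPM in 90.6% of DMSO insulin-only cells (48 of 53, with 79.3% to 96.9% as the 95% interval by Clopper and Pearson's exact method) and in 81.8% of GNF4877 cells (45 of 55, 69.1% to 90.9%). These intervals cover counting error in the cells caught, and say nothing of another chip or culture.

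*Iapp*, the amylin gene, went the other way. It ran from 1.5 to 12254 RPM in DMSO where the median cell held 656 RPM, and between 3.61 and 19202 RPM in GNF4877, where it held 3145 RPM. Of the GNF4877 cells, 40 of 55 lay above the DMSO median, while 9 of 53 DMSO cells lay above the GNF4877 median. The mean was 4640 RPM in GNF4877 and 1640 RPM in DMSO, a log2 ratio of 1.5, and the ratio of the medians was larger, at 2.26 on the log2 scale. *Iapp* reached 1000 RPM in 32.1% of DMSO insulin-only cells (17 of 53, 19.9% to 46.3%) and in 65.5% of GNF4877 cells (36 of 55, 51.4% to 77.8%). The 90th percentile of *Iapp* was 19.8 times its 10th in DMSO and 97.7 times in GNF4877, and over all cells with no other hormone at 1000 RPM it was 93.7 and 161 times.

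**Figure D1:**
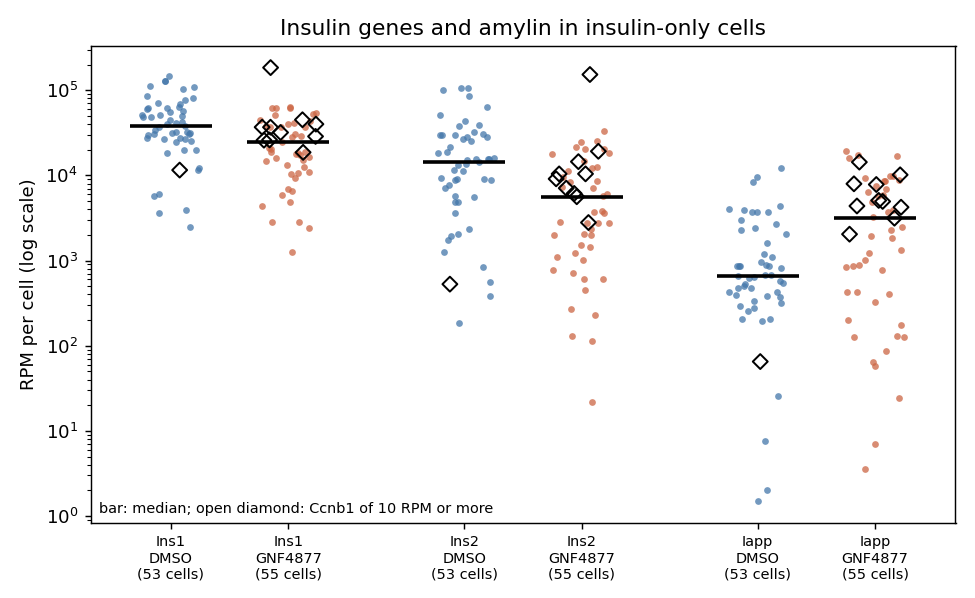
RPM per cell on a log axis for *Ins1*, *Ins2* and *Iapp* in insulin-only cells of each treatment, where points are cells, bars are medians and open diamonds are cells with *Ccnb1* of 10 RPM or more. The medians of *Ins1* and *Ins2* are lower in GNF4877 (24380 and 5619 RPM) than in DMSO (38084 and 14375 RPM), and that of *Iapp* is higher (3145 against 656 RPM).

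In summed reads the insulin-only DMSO cells held 2792089 reads of *Ins1*, 1274712 of *Ins2* and 96178 of *Iapp* (exact Poisson 95% interval 95571 to 96788). The GNF4877 cells held 2090265, 660941 and 345889 reads (344737 to 347044 for *Iapp*). The cDNA was amplified without molecular identifiers, so reads are not independent counts. These intervals leave out amplification, the spread between cells and any other chip or culture. The sums are not scaled to depth, and median mapped reads were 1188379 in DMSO and 1424573 in GNF4877 insulin-only cells. Against all genes, 1 of the 3 members was 2-fold or more higher in GNF4877 by log2 of the ratio of mean RPM + 1, where 11.8% of 13809 genes were, and 1 was 2-fold or more lower, where 18.6% were. The member that was higher was *Iapp* and the member that was lower was *Ins2*. For *Ins2* passing 2-fold depends on the class. Its log2 ratio of means was -0.99 with *Ins1* of 10000 RPM or more and -0.99 with *Ins2* of 1000 RPM making the class. With second hormones kept in it was -0.96, so these 3 fell short of 2-fold. Past 2-fold were -1.15 with any *Ins1* value above 0 and -1.21 with second hormones under 100 RPM. So were -1.18 without the libraries that stood apart and -1.66 without cells with *Ccnb1* of 10 RPM or more. The median gene had a log2 ratio of -0.08. Counted together, the 3 genes took a median of 4.97% of the mapped reads of a DMSO insulin-only cell (0.291% to 26%) and 3.61% of a GNF4877 cell (0.129% to 34.1%). Without the libraries that stood apart the lowest shares were 0.428% and 0.257%. They took 10% or more in 11 of 53 DMSO cells and in 1 of 55 GNF4877 cells.

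Outside the insulin-only class the treatments differed in which cells were caught. A cell with both insulin and *Gcg* of 1000 RPM or more occurred 22 times in DMSO and once in GNF4877. In the 22 DMSO cells *Gcg* had a median of 163196 RPM and *Ins1* of 31841 RPM, within the range of insulin-only cells, with *Ins2* at a median of 10177 RPM and *Iapp* at 735 RPM. Of the 22, 5 also held *Ppy* at 1000 RPM or more. The methods state that captured cells were looked at under a microscope and that ports were kept where 1 cell was seen. Whether both hormones came from 1 cell was not tested here. Cells with *Gcg* and no insulin numbered 5 in DMSO and 18 in GNF4877. In them *Ins1* had a median of 129 RPM (45.3 to 495) in DMSO and 24.2 RPM (7.05 to 813) in GNF4877, and every one of these cells held a read of all 3 genes. At 100000 reads a cell, 15 of the 18 GNF4877 cells held a read of *Ins1*, 10 of *Ins2* and 13 of *Iapp*, and of the 5 DMSO cells 4 held *Ins1* and all held the others. *Ins2* had medians of 73.5 and 8.06 RPM there. *Iapp* had medians of 223 RPM (94.5 to 249) and 12.1 RPM (0.705 to 882). The highest of these *Iapp* levels lay above the DMSO insulin-only median. The source of these reads was not tested.

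A split by the other hormones alone, which used no member, gave medians that differed more in GNF4877 than in DMSO. Of the DMSO cells, 55 had no other hormone at 1000 RPM and 31 had one, with *Ins2* medians of 13485 and 4048 RPM. Of the GNF4877 cells 58 had none and 26 had one, with *Ins2* medians of 3767 and 10.3 RPM. *Iapp* medians were 638 and 536 RPM in DMSO, and 2396 and 20.3 RPM in GNF4877. Among cells with *Sst* or *Ppy* of 1000 RPM or more, *Gcg* under it and no insulin, GNF4877 cell 49, with *Sst* at 35288 RPM, held *Iapp* at 5450 RPM beside *Ins1* at 36.2 RPM. In the other 3 such GNF4877 cells *Iapp* ran from 2.99 to 49.3 RPM, and in the 1 DMSO cell it was 35.6 RPM. Cells with insulin and *Sst* or *Ppy*, and *Gcg* under 1000 RPM, numbered 3 in each treatment, with *Iapp* medians of 1277 RPM in DMSO and 4208 RPM in GNF4877.

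The ratio of *Ins1* to *Ins2* reads was taken in each cell, and compared between cells only. In DMSO insulin-only cells it ran from 1.22 to 21.8 with a median of 2.98, and in GNF4877 cells from 1.21 to 57.9 with a median of 4.63. As a ratio of summed RPM it was 2.1 and 2.85, which lies lower and closer together. It was 10 or more in 11.3% of DMSO cells (6 of 53, 4.27% to 23%) and 29.1% of GNF4877 cells (16 of 55, 17.6% to 42.9%). The 3 cells with the lowest ratio were GNF4877 cell 78 at 1.21, DMSO cell 3 at 1.22 and GNF4877 cell 29 at 1.25, with *Ins1* at 184281, 128872 and 30878 RPM. The 3 with the highest were GNF4877 cells 2, 61 and 56, at 57.9, 24.4 and 23.2, with *Ins1* at 1248, 2805 and 10453 RPM. The ratio of cell 2 rests on 405 and 7 reads in a library with 3.03% of its reads listed. Without the 4 libraries that stood apart the medians were 2.75 and 4.63 and the highest ratio in GNF4877 was 24.4.

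The ratio was smaller where insulin was higher. Its Spearman rho with *Ins1* over insulin-only cells was -0.62 in DMSO and -0.51 in GNF4877, and since *Ins1* is a term of the ratio, these describe the shape of the cloud only. The slope of log2 *Ins2* on log2 *Ins1* was 1.47 in DMSO and 1.54 in GNF4877, so *Ins2* climbed more steeply than *Ins1* in both. Without the libraries that stood apart the slopes were 1.68 and 1.49. In cells with *Ins1* from 10000 to 70000 RPM the *Ins2* levels of the treatments lay close together. For *Ins1* from 10000 to 30000 RPM the median of *Ins2* was 4818 RPM in 13 DMSO cells and 3744 RPM in 23 GNF4877 cells. For *Ins1* from 30000 to 70000 RPM it was 15456 RPM in 25 and 14502 RPM in 21 cells. *Iapp* did not lie together in the same cells, with medians of 430 and 1321 RPM in the lower range and 686 and 5855 RPM in the upper one. The count of *Iapp* cells at 1000 RPM or more in the upper range was 7 of 25 in DMSO and 20 of 21 in GNF4877. The ranges at the ends held few cells. Under 10000 RPM of *Ins1* there were 5 DMSO and 10 GNF4877 cells, with *Ins2* medians of 559 and 439 RPM and *Iapp* medians of 25.5 and 254 RPM. Without the libraries that stood apart 2 and 9 of them were left, with *Ins2* medians of 1056 and 607 RPM and *Iapp* medians of 378 and 330 RPM. From 70000 RPM there were 10 DMSO cells, with medians of 57571 RPM for *Ins2* and 3363 RPM for *Iapp*, and 1 GNF4877 cell, with 152865 and 4234 RPM, so there *Ins2* lay further apart and *Iapp* closer together than in the middle ranges.

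**Figure D2:**
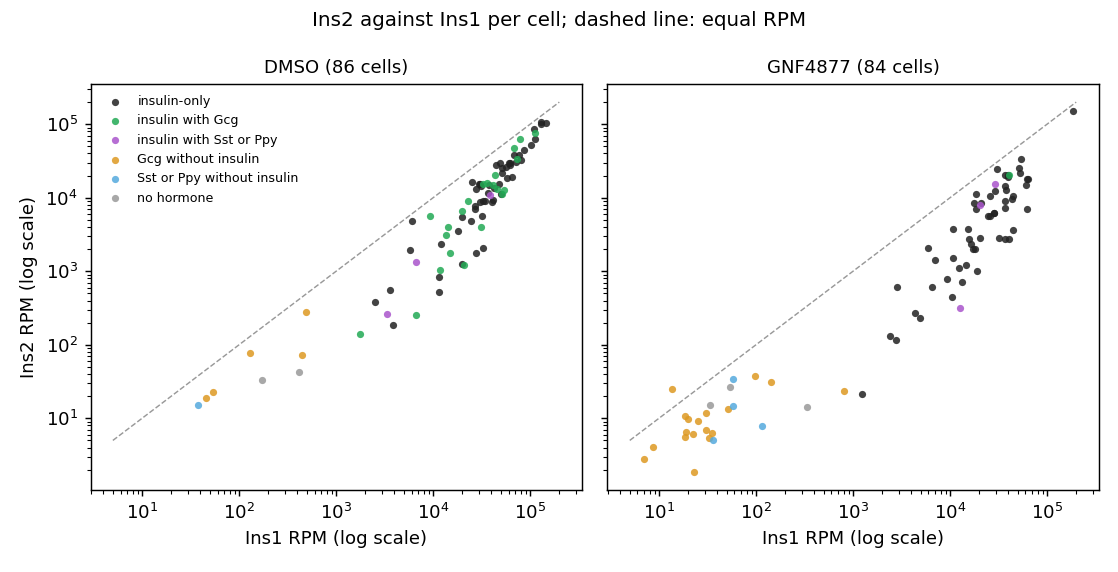
*Ins2* against *Ins1* RPM per cell on log axes, DMSO cells on the left and GNF4877 cells on the right, coloured by hormone class, with a dashed line at equal RPM. The cloud of insulin-only cells is steeper than the dashed line, with slopes of 1.47 and 1.54.

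The members moved together over cells. In 53 DMSO insulin-only cells the Spearman rho was 0.93 for *Ins1* and *Ins2*, 0.74 for *Ins1* and *Iapp* and 0.70 for *Ins2* and *Iapp*. In 55 GNF4877 cells the values were 0.84, 0.65 and 0.53. The cells of a treatment share chip, library preparation and the total that scales RPM, and *Ins1* and *Ins2* may share reads, so these are descriptions. Mapped reads had a rho between -0.25 and -0.15 with the members in DMSO and between -0.10 and -0.09 in GNF4877. The number of genes read had a rho between 0.13 and 0.24 in DMSO and between 0.05 and 0.21 in GNF4877, and without the libraries that stood apart the DMSO values lay between -0.02 and 0.12. Where *Ins1* of 10000 RPM or more was asked for, the GNF4877 values were 0.73, 0.46 and 0.26, each lower than over all insulin-only cells. The DMSO values were then 0.91, 0.68 and 0.65, also lower but by less.

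**Figure D3:**
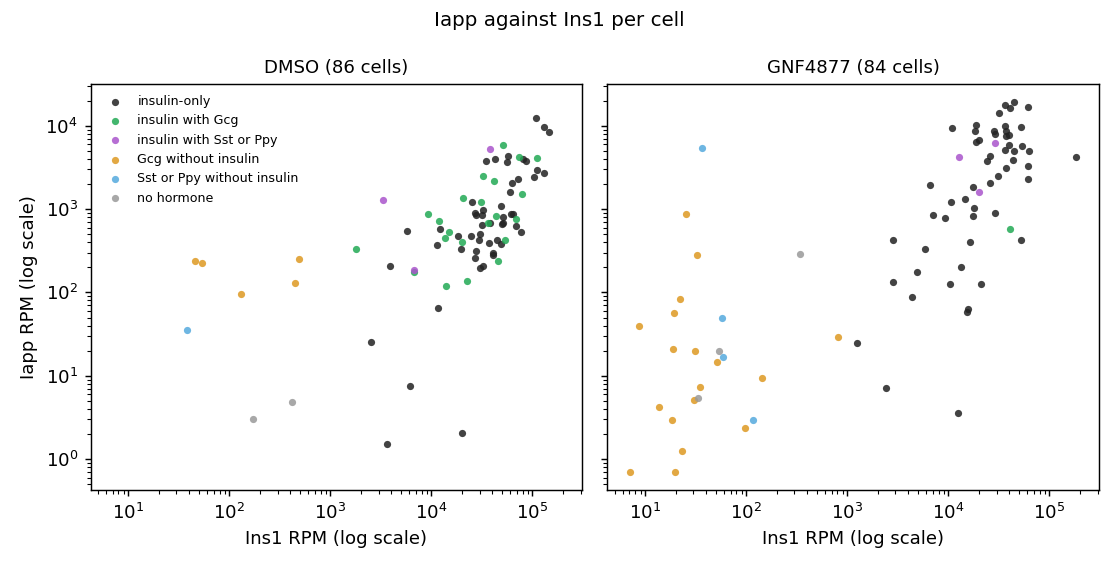
*Iapp* against *Ins1* RPM per cell on log axes, DMSO cells on the left and GNF4877 cells on the right, coloured by hormone class. Insulin-only cells with *Ins1* from 30000 to 70000 RPM have a median *Iapp* of 686 RPM in DMSO and 5855 RPM in GNF4877.

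The genes most like each member were ranked over 6036 genes with a read in at least 50% of the insulin-only cells of each treatment, by the weaker of the DMSO and GNF4877 rho. For *Ins1* they were *Ins2*, *Iapp*, *Gnas* (0.61 in DMSO and 0.66 in GNF4877), *Resp18* (0.67 and 0.59) and *Cd24* (0.60 and 0.59). For *Ins2* they were *Ins1*, *Resp18* (0.60 and 0.61), *Slc38a5* (0.59 and 0.56), *Iapp* and RGD1306880 (0.51 and 0.51). For *Iapp* they were *Hadh* (0.68 and 0.73), *Slc38a5* (0.71 and 0.65), *Ins1*, *Slc2a2* (0.82 and 0.65) and *Gnas* (0.71 and 0.64). *Gnas* encodes a G-protein α-subunit, *Hadh* a mitochondrial enzyme of fatty-acid oxidation and *Slc38a5* an amino-acid transporter. At the other end, the lowest values for *Ins1* were those of LOC100910455 (-0.44 and -0.50), RGD1562420 (-0.42 and -0.44) and the ribosomal protein gene *Rpl19* (-0.42 and -0.50). For *Ins2* they were LOC100910455 (-0.54 and -0.43), *Rpl19* (-0.52 and -0.43) and LOC679625 (-0.48 and -0.42). For *Iapp* they were the fatty-acid-binding protein gene *Fabp5* (-0.53 and -0.50) and the ribosomal protein genes *Rps27* (-0.42 and -0.63) and *Rpl10* (-0.40 and -0.43). A gene that takes a large share of the reads lowers the RPM of the rest, and with reads outside the 6 hormone genes as the total *Rpl19* had -0.34 and -0.46 with *Ins1*. The median gene had a rho of 0.09 and 0.01 with *Ins1*.

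Within GNF4877 the insulin-only cells were split by *Ccnb1*, the cyclin of mitotic entry, at 10 RPM, which 10 of 55 cells reached. In these 10 cells *Ins1* ran from 18651 to 184281 RPM with a median of 34346 RPM, and in the 45 others from 1248 to 63576 RPM with a median of 18580 RPM. *Ins2* ran from 2796 to 152865 RPM with a median of 9763 RPM, against 21.6 to 33272 RPM with a median of 2823 RPM. *Iapp* ran from 2041 to 14323 RPM with a median of 5016 RPM, against 3.61 to 19202 RPM with a median of 1831 RPM. The 10 cells lacked the low values of every member that were found among the 45 others, and the groups overlapped above them. A group of 10 cells has fewer chances to hold extreme values than 1 of 45. The lowest *Ins1* and *Ins2* of the 45 were in cell 2, a library that stood apart. All 10 held *Iapp* at 1000 RPM or more (exact interval 69.2% to 100%), as did 26 of the 45 others.

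The log2 ratios of means, *Ccnb1* cells over the others, were 0.91 for *Ins1*, 1.72 for *Ins2* and 0.59 for *Iapp*. By log2 of the ratio of mean RPM + 1, 1 of the 3 members, *Ins2*, was 2-fold or more higher, where 17.3% of 13007 genes were, and 0 were 2-fold or more lower, where 25.9% were. The *Ins2* mean rests on 1 cell. Without GNF4877 cell 78, which held *Ins2* at 152865 RPM and *Ccnb1* at 392 RPM, the log2 ratios were 0.39 for *Ins2* and 0.35 for *Ins1*. With any *Ccnb1* read as the split *Ins2* had 0.94. For *Iapp* the log2 ratio of medians was larger than that of means, at 1.45. The ratio of *Ins1* to *Ins2* had a median of 3.34 (1.21 to 11.4) in the *Ccnb1* cells and 5.01 (1.25 to 57.9) in the others. Among DMSO insulin-only cells only cell 46, with the highest mesenchymal sum, had *Ccnb1* of 10 RPM or more, at 49.4 RPM. It held *Ins1* at 11547, *Ins2* at 529 and *Iapp* at 65.2 RPM.

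Genes that act on insulin and amylin were taken from 4 lists and compared over insulin-only cells by log2 of the ratio of mean RPM + 1, GNF4877 over DMSO. Over all 13809 genes 11.8% were 2-fold higher and 18.6% lower. Named below are genes with a mean of 10 RPM or more in either treatment, unless said otherwise. Of 10 regulators of the insulin and amylin genes, 9 reached a mean of 1 RPM, 0 of them 2-fold higher and 1 lower, with a median of -0.07. The lowest were *Nkx6-1* (means of 11.8 RPM in DMSO and 4.68 RPM in GNF4877, log2 ratio -1.18) and *Pdx1* (38.6 and 30.8 RPM, -0.31), both homeodomain factors of β-cells. The highest were *Neurod1* (385 and 723 RPM, 0.91) and *Isl1* (40.8 and 58.7 RPM, 0.51). *Neurod1* medians were close, at 394 and 393 RPM, and those of *Isl1* went the other way, at 18.7 and 0.882 RPM.

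Of 10 genes for prohormone folding and processing, 1 was 2-fold higher and 1 lower, with a median of 0.07. *P4hb*, a disulfide isomerase, had means of 664 and 1472 RPM (1.15), and *Dnajc3*, a co-chaperone of the endoplasmic reticulum, 156 and 241 RPM (0.62). *Pcsk1n*, which encodes an inhibitor of the convertase PC1, had 10.4 and 3.25 RPM (-1.42), and *Pam*, the enzyme that amidates peptides such as amylin, 1405 and 844 RPM (-0.73). Of 10 granule genes, 1 was 2-fold higher and 2 were lower, with a median of 0.16, counts near the shares over all genes. The zinc transporter of insulin granules, *Slc30a8*, had 417 and 861 RPM (1.04), and *Chgb* 204 and 271 RPM (0.41), with medians the other way at 129 and 88.3 RPM. *Ptprn2* had 172 and 53.3 RPM (-1.67) and *Vamp2* 64.6 and 25.3 RPM (-1.32). Of 9 genes for receptors and breakdown, 6 reached 1 RPM, 0 were 2-fold higher and 3 lower, with a median of -0.64. *Irs2*, an adaptor of the insulin receptor, had 72 and 7.73 RPM (-3.06). The others that were lower, under the 10 RPM limit and named after their values were seen, were the insulin receptor gene *Insr* (2.73 and 0.39 RPM, -1.42) and *Irs1*, another adaptor, at a mean of 6.14 RPM in DMSO and listed at 0 in every GNF4877 insulin-only cell. Both had medians of 0. Means stood higher for *Igf1r* (500 and 555 RPM, 0.15), *Ide*, an insulin-degrading protease (29.6 and 35.2 RPM, 0.24), and *Ramp2* (24 and 29.5 RPM, 0.29). Their medians went the other way, at 302 and 251 RPM for *Igf1r*, 6.43 and 0 RPM for *Ide* and 15.3 and 6.83 RPM for *Ramp2*. The amylin receptor genes *Calcr*, *Ramp1* and *Ramp3* were listed at 0 in every insulin-only cell.

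The 3 genes moved together over cells, while *Iapp* parted from the insulin genes between treatments. The stretches of 250 bases before the start of each gene are shown here, and whether they bear on these levels was not tested. All 3 were matched by symbol in RefSeq, build GRCr8, at chr1:261185869-261186118 on the plus strand for *Ins1*, chr1:207273806-207274055 on the minus strand for *Ins2* and chr4:176967847-176968096 on the plus strand for *Iapp*. Capitals mark matches on either strand, which can overlap, to the homeodomain core TAAT, to CATCTG, which is an E-box, to the start of a cyclic AMP element, TGACG, and to the TATA box TATAAA.
Ins1: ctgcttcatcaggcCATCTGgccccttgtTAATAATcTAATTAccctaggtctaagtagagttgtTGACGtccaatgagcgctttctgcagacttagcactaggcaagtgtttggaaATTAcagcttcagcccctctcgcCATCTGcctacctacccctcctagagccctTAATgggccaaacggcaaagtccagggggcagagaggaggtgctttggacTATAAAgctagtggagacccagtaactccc
Ins2: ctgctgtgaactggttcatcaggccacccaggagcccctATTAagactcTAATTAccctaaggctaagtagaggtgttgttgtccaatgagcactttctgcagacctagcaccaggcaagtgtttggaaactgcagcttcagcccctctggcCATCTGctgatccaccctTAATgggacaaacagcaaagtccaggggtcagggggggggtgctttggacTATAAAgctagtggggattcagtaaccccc
Iapp: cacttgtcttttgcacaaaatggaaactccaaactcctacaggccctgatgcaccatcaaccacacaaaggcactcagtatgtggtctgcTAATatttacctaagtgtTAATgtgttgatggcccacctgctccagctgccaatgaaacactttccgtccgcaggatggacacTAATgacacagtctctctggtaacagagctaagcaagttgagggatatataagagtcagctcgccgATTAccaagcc

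The *Ins1* and *Ins2* stretches were identical in 205 of 262 aligned columns (78.2%), and *Iapp* in 46.8% with *Ins1* and 49.3% with *Ins2*. Gaps took 24 columns between the insulin genes, and 68 and 56 columns with *Iapp*. The identity of unrelated stretches aligned in this way was not computed, so the *Iapp* values cannot be read as shared sequence. TAAT occurred 6, 4 and 4 times in *Ins1*, *Ins2* and *Iapp*, and 57% of 33469 promoters held it. CATCTG occurred 2, 1 and 0 times (14% of promoters), TGACG 1, 0 and 0 times (18.2%) and TATAAA 1, 1 and 0 times (12.9%). In both insulin genes TATAAA began 30 bases before the start. A match is a run of letters and no match says only that these letters were not in the window.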

How the data were processed

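Single islet cells were captured, their cDNA amplified and sequenced, and the authors deposited 1 table of RPM, reads of a transcript scaled to 1000000 mapped reads of the cell, with 0.01 where no read was counted. The submitters' processing notes name CASAVA 1.8.2, BWA 0.5.9 and SAMtools 0.1.19; the methods name a mouse transcriptome, while the rows are rat RefSeq transcripts, and the genome build is not given in the sources used here. Here 0.01 was set to 0 (69.7% of values) and the 27586 rows were summed to 24113 genes. The size of 1 read per cell was found from its low values, of which 100% up to 20 reads were whole within 0.1 read. Shares have exact Clopper-Pearson and summed reads exact Poisson 95% intervals, which cover counting error only.

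The members and lists were chosen with earlier results of these data known. Named genes were the members, the class genes, from each list the 2 highest and 2 lowest log2 ratios among genes with a mean of 10 RPM or more, the 5 highest and 3 lowest rho per member, and the cells at the extremes of the ratio and at the threshold. Marker genes and genes listed at 0 were named outside this rule, after their values were seen. GRCr8 tables served for names and promoters. Promoters were aligned end to end with biopython 1.88. The ratio and ranking steps were tested on simulated data. Python 3.11.15, numpy 2.4.6, pandas 2.3.3 and scipy 1.17.1 were used. Alternative classes, scales, summaries and depths were tried, and those chosen after seeing the data are named with their effect.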

Additional observations from a re-analysis of the deposited data

How the results depend on the processing

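No paired analysis was possible because cell numbers link no cells between treatments and no test was run. With no replicates, a log2 ratio or a ratio of *Ins1* to *Ins2* was counted as moved past 1.5-fold, a correlation past 0.1 and a share past its exact interval. Of 201 values under alternatives, 172 stayed within these limits, 29 moved and 0 changed direction. Not counted are 8 values with the highest row of a gene, which could not move as each member has 1 row, and 2 shares set to 100% by the rule. The causes were not tested.

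Between treatments only *Iapp* moved past these limits, to a log2 ratio of 2.26 with medians. Leaving out any 1 cell gave -0.83 to -0.63 for *Ins1*, -1.56 to -1.02 for *Ins2* and 1.41 to 1.69 for *Iapp*. Median *Ins1* over *Ins2* in GNF4877 was 2.85 as a ratio of summed RPM. In GNF4877 rho of *Ins1* and *Ins2* was 0.73 with *Ins1* of 10000 RPM or more and 0.72 with *Ins2* of 1000 RPM making the class, rho of *Ins1* and *Iapp* 0.46 and 0.45, and that of *Ins2* and *Iapp* 0.26 and 0.25, while Pearson r of log2 values for the last pair was 0.63. Between *Ccnb1* groups *Ins2* was 0.46 with second hormones under 100 RPM, 0.94 with any *Ccnb1* read and 0.39 without cell 78, and *Iapp* was 1.45 with medians and 2.24 with mean log2 values.

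Of DMSO insulin-only cells, 100% held *Ins2* where *Ins2* made the class, by its own rule, 100% at any read, 100% at 100 RPM and 58.5% at 10000 RPM; for *Iapp* the thresholds gave 100%, 90.6% and 1.89%. Of GNF4877 cells, *Ins2* of 1000 RPM was held by 95.6% with *Ins1* of 10000 RPM or more and 100%, again by the rule, where *Ins2* made the class, and the thresholds gave 100%, 98.2% and 30.9%. *Iapp* gave 77.8% in both those classes, and the thresholds 100%, 89.1% and 10.9%. Leaving out the libraries with few listed reads, or the cells with *Ccnb1*, moved none of the 201 past these limits, but without those libraries rho with the number of genes read in DMSO went from 0.22 to 0.07 for *Ins1*, from 0.24 to 0.12 for *Ins2* and from 0.13 to -0.02 for *Iapp*. Both were chosen after seeing the data, as were the 100 RPM second-hormone class for ratios and correlations and every other class for the shares. Thinning to 100000 reads left out 2 DMSO and 1 GNF4877 insulin-only cells.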
